A study of Mus musculus with 8 samples.

Results

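The T-box factors Eomes and Tbx21 (which encodes T-bet) and 7 other regulators of T helper 1 effector cells (Zeb2, Prdm1, Maf, Ahr, Hlx, Bhlhe40 and Cebpb) were followed in regulatory T cells (Tregs) and conventional CD4+ T cells (Tconvs). They were taken by name, 9 of the 52636 rows of the deposited table, and were chosen with earlier results of these data known. The study reports Eomes, Tbx21, Zeb2, Prdm1 and Cebpb as upregulated in these libraries. Counts of regulators called are thus not independent of its results. The cells came from spleens of mice of 6 to 8 wk, all heterozygous for CD27 (CD27+/-) and carrying a Foxp3-eGFP reporter. Control mice had no further transgene. CD11c-Cd70tg;CD27+/- mice (CD70Tg) also carried CD70, the ligand of CD27, under the CD11c promoter, which is active in dendritic cells. Their T cells thus met CD70 without any antigen being given, and the study describes spontaneous disease in these mice. Antibodies to CD49b, GR1, Ter119, CD11c, CD8beta and MHC class II were among those used for depletion, which was aimed at NK cells, granulocytes, dendritic cells and CD8 T cells among others. An antibody to CD25 was used in the depletion of Tconvs only. CD3+ CD4+ cells were then sorted as GFP- (Tconv) or GFP+ (Treg), 200000 cells per library. Each of the 4 groups had 2 libraries, and nothing states whether these came from different animals, so that p-values measure only the spread between these libraries, which may be technical. The columns of the table name the controls KO and the sample descriptions name them WT.

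T-bet and Eomes are related DNA-binding proteins of the T-box family. T-bet is induced by interferon-gamma and interleukin-12 signals and directs T helper 1 differentiation, and both factors act on cytotoxic and chemokine genes in CD8 T cells and NK cells. Zeb2 is a zinc-finger repressor that acts with T-bet in terminal effector cells, and Hlx is a homeobox protein induced by T-bet that favours interferon-gamma expression. Blimp-1 (Prdm1), c-Maf (Maf) and the aryl hydrocarbon receptor (Ahr) are known for promoting interleukin-10 expression and effector Treg functions, whereas Bhlhe40 restrains interleukin-10 and favours inflammatory cytokines. C/EBP-beta (Cebpb) is a leucine-zipper factor best known from myeloid cells.

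The values are reads per gene scaled to 20 M per library, and the depth behind them was worked out from the spacing of the low values. The Treg libraries held an estimated 4.12 M and 4.57 M reads on genes in controls and 1.91 M and 3.68 M in CD70Tg mice, and the Tconv libraries 19.5 M and 9.56 M in controls and 6.94 M and 33.3 M in CD70Tg mice. The floor, the value of 3 reads, ranged from 1.8 to 31.35. Foxp3 lay between 1039 and 1497 in the Tconv libraries and between 19769 and 21367 in the Treg libraries, as the sort requires. The second CD70Tg Tconv library stood apart from its partner: it was the higher of the pair for 73.9% of tested genes, and for 7 of the 9 regulators, 5 of them by over 1.5-fold against 9.1% of tested genes. Regulators whose call it decides are also given without it, and for the gene lists the changes that come with 1 library left out, an alternative added after the values were seen, are given beside the counts. In sorted populations of mixed cells, more cells expressing a gene and more RNA per cell cannot be told apart.

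Among the regulators, Eomes had the largest increase in Tregs and Bhlhe40 in Tconvs. Of the 8 regulators with enough reads to test (Hlx was too low), 3 were called higher in CD70Tg than in control Tregs (Eomes, Bhlhe40 and Tbx21), where 2.52% of the 12798 tested genes were, and none lower (1.08% of tested genes). In Tconvs 4 were called higher (Bhlhe40, Eomes, Prdm1 and Cebpb; 4.07% of tested genes) and none lower (0.57%). With 1 library left out the number called was 2 to 3 in Tregs, being 2 without any one of the Treg libraries, and 3 to 6 in Tconvs, being 3 without the second CD70Tg Tconv library and 6 without the first. The number of all tested genes called higher in Tconvs moved as well, from 521 to 266 without the second and 691 without the first. The call asked for a log2 fold change over 1 with an adjusted p-value below 0.05 in limma's test of log2(value + 5). The libraries of the 2 genotypes did not overlap for most of the regulators. In Tregs 5 of 8 were above (22.5% of tested genes) and 2 below (31.2%), and in Tconvs 7 were above (23.7%) and 0 below (21.5%). The median log2 fold change of the 8 was 0.79 in Tregs and 1.49 in Tconvs, against -0.05 and 0.01 over all tested genes.

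Markers of red cells and B cells were higher in both CD70Tg than in both control Treg libraries, by their sums. The same held for markers of neutrophils, dendritic cells, macrophages and CD8 T cells, whose values are given further below. Values of the red cell and B cell genes are given here. Of 5 red cell genes, 4 were called higher in CD70Tg Tregs (2.52% of tested genes), although cells bearing Ter119 were depleted, with a median log2 fold change of 1.63 over the 5. Their summed value was 566 to 1583 in control and 2406 to 4014 in CD70Tg Tregs, and 870 to 1520 and 943 to 994 in the Tconvs. None of the 5 was called in Tregs without the first control or the first CD70Tg Treg library. The summed value of 6 B cell genes was 288 to 397 in control and 437 to 484 in CD70Tg Tregs and 166 to 183 and 64 to 96 in the Tconvs, and neither of the 2 that could be tested was called. The part of red cells and B cells in the regulators' values in Tregs was not tested.

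**Figure D1:**
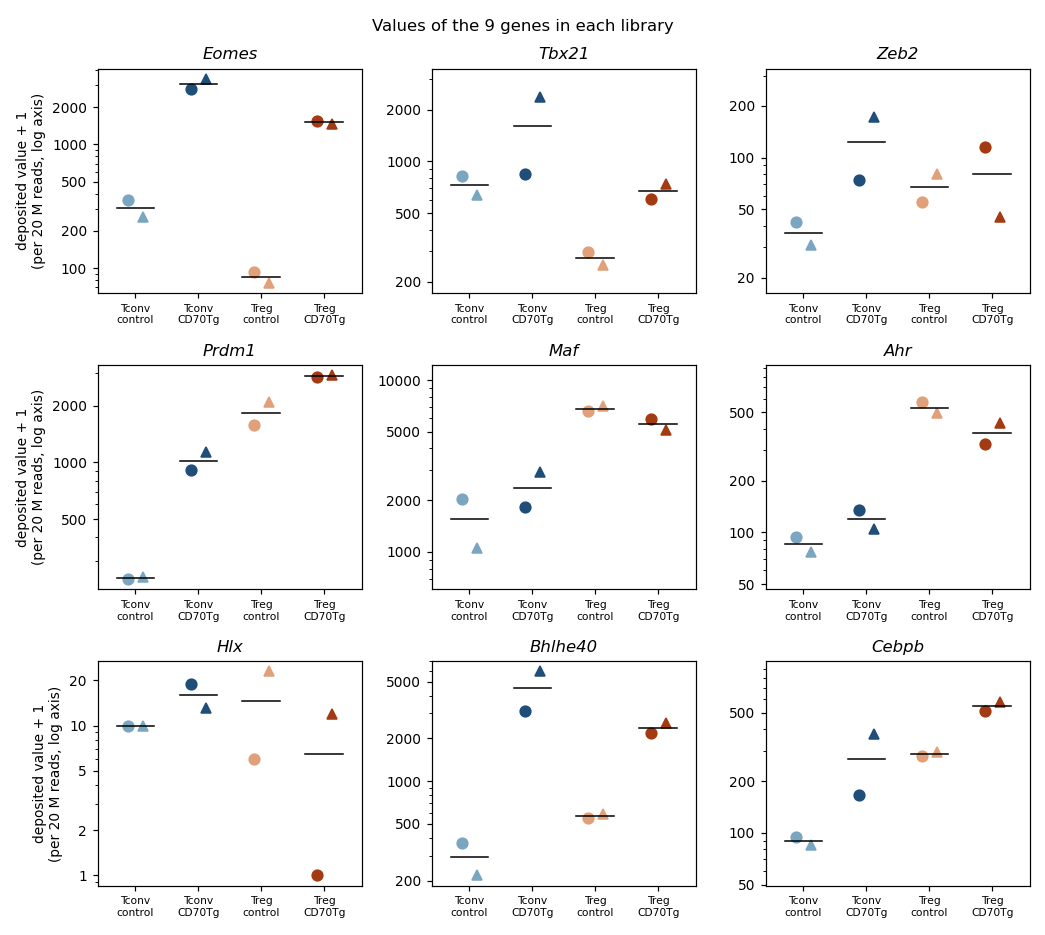
Deposited value plus 1 (reads scaled to 20 M per library, log axis) of each of the 9 regulators in the 8 libraries, with circles for the first and triangles for the second library of a group and a line at the group mean. Eomes and Bhlhe40 are higher in both CD70Tg libraries than in both controls in each subset, whereas Maf and Ahr separate Tregs from Tconvs.

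Eomes (ENSMUSG00000032446, mm10 chr9:118478212-118486132, plus strand) was low in control Tregs and rose with the transgene in both subsets. Its values were 93 and 75 in control Tregs, 352 and 258 in control Tconvs, 1547 and 1458 in CD70Tg Tregs and 2807 and 3386 in CD70Tg Tconvs. The 4 groups did not overlap, and each group lay above the one named before it. In Tregs the control values rested on 17 to 19 reads and the CD70Tg values on 148 to 268. In Tregs the log2 fold change was 4.09 (SE 0.19, 95% interval 3.69 to 4.49, adjusted p = 2.2e-09), the sixth largest increase of all tested genes, and 3.33 in Tconvs (SE 0.19, interval 2.94 to 3.73, adjusted p = 4.1e-09). These are 17.0-fold and 10.1-fold on the scale of value + 5. The response of Tregs exceeded that of Tconvs by 0.76 (interval 0.19 to 1.32), which did not pass the test over all genes (adjusted p = 0.26). With every alternative processing and any single library left out, the log2 fold change stayed between 3.88 and 4.24 in Tregs and between 3.11 and 3.55 in Tconvs.

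Eomes remained lower in Tregs than in Tconvs in both genotypes. The difference was -1.79 on the log2 scale in controls (SE 0.19, adjusted p = 1.3e-06) and -1.04 in CD70Tg mice (adjusted p = 0.00038). The latter lies close to the threshold of 1 and was -0.90 without the second CD70Tg Tconv library and -0.99 without the second CD70Tg Treg library, which ends the call. With upper-quartile scaling it also fell just short of the threshold. The strand setting of the counting is not given in the sources used here. The antisense gene Gm33460 covers 118 bases (2.8%) of the Eomes exons. Over the 8 libraries it was the gene whose pattern was most like that of Eomes (Pearson r of log2 values = 0.994), with 10 and 14 in control Tregs, 157 and 142 in CD70Tg Tregs, 44 and 28 in control Tconvs and 289 and 338 in CD70Tg Tconvs. Whether reads of Eomes and of Gm33460 were kept apart where the genes overlap is therefore not known. The next genes in likeness were Tgtp1, which encodes an interferon-inducible GTPase, and Gm12185 (r = 0.988 for both).

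Tbx21 (ENSMUSG00000001444, chr11:97098071-97115331, minus strand) rose in Tregs by a smaller amount than Eomes. It had 296 and 250 in control Tregs and 607 and 735 in CD70Tg Tregs, and 819 and 635 in control Tconvs and 848 and 2368 in CD70Tg Tconvs. The 2 Treg genotypes were well separated, whereas the first CD70Tg Tconv library was only just above the higher control and the second stood far above both. The change in Tregs was 1.28 on the log2 scale (SE 0.31, interval 0.62 to 1.94, adjusted p = 0.019), or 2.43-fold. It was 0.97 in Tconvs (SE 0.31, interval 0.31 to 1.63, adjusted p = 0.066). The Tconv value turned on 1 library: it was 0.23 (adjusted p = 0.68) without the second CD70Tg Tconv library and 1.71 (adjusted p = 6.5e-05) without the first. The Treg call was lost without any one of the 4 Treg libraries, with log2 fold changes of 1.14 to 1.42 and adjusted p-values of 0.063 to 0.12. The responses of the subsets differed by 0.31 (interval -0.62 to 1.24, adjusted p = 0.87), an interval that holds differences in either direction.

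Tbx21 was also the lower in Tregs in both genotypes. It differed by -1.39 in controls (adjusted p = 0.0018, and 0.058 and no longer called both with no minimum value and with limma-voom) and by -1.08 in CD70Tg mice (adjusted p = 0.011). The value in CD70Tg mice was -0.34 (adjusted p = 0.24) without the second CD70Tg Tconv library and -0.94 (adjusted p = 0.083) without the first CD70Tg Treg library, and the call was also lost with no minimum value (adjusted p = 0.12) and with limma-voom (-1.25, adjusted p = 0.063). CD70Tg Tregs (607 and 735) overlapped control Tconvs (635 and 819), so that the order of these 2 groups is not set by the data. Control Tregs were the lowest group. The gene most like Tbx21 was Oas3, which encodes an antiviral enzyme induced by interferon (r = 0.99), followed by Cox5b and Dbnl.

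Per kb of exon, the 2 T-box genes changed places. Scaled by exon length, Eomes was at 0.257 and 0.243 of the level of Tbx21 in control Tconvs and at 0.188 and 0.18 in control Tregs. In CD70Tg mice the ratio was 1.53 and 1.19 in Tregs and 1.98 and 0.856 in Tconvs. Eomes was thus above Tbx21 in 3 of the 4 CD70Tg libraries and below it in all 4 controls. The exception was the second CD70Tg Tconv library, where Tbx21 was 951.8 per kb and Eomes 814.9 per kb. This ratio was chosen after the values were seen and is given without a test.

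**Figure D2:**
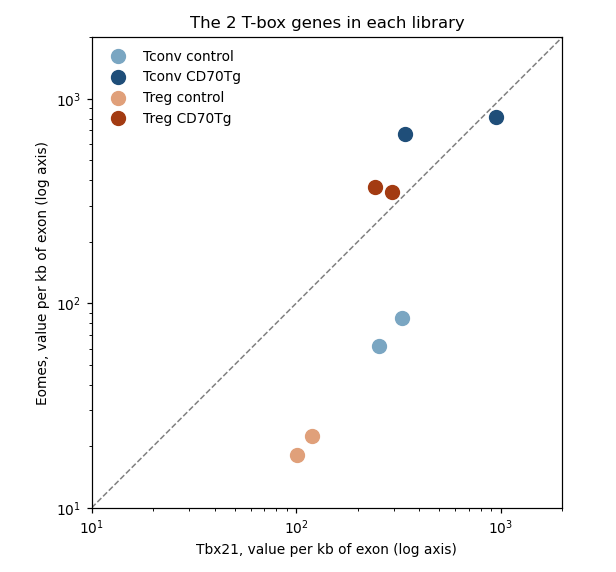
Eomes against Tbx21 in the 8 libraries, each as deposited value per kb of exon on a log axis, with a dashed line where both are equal and 1 colour per group. The 4 control libraries lie below the line at ratios of 0.18 to 0.257, and 3 of the 4 CD70Tg libraries lie above it.

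The promoters of the 2 genes are shown because both rose in Tregs. The windows are the 250 bases before the annotated RefSeq start in GRCm38.p6, chr9:118477939-118478188 (plus strand) for Eomes and chr11:97115332-97115581 (minus strand) for Tbx21, and no base of either lies in an annotated exon. Capitals would mark GGTGTGA (the core of the T-box element), TTCNNNGAA (STAT), the NF-kappaB decamer, GCGTG (aryl hydrocarbon receptor) and CACGTG (Bhlhe40), each searched on both strands.
Eomes: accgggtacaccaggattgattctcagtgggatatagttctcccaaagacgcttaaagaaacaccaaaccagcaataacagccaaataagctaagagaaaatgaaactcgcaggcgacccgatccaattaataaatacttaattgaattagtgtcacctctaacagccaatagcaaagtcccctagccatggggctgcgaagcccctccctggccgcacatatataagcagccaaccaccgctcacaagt
Tbx21: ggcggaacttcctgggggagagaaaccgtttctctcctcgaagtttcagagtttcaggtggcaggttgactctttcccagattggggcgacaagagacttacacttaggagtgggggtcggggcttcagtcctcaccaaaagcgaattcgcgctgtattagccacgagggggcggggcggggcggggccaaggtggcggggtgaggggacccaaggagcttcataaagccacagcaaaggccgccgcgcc
None of the 5 motifs occurs in either window. Over the 32851 RefSeq windows of this length the shares holding them were 3.3%, 7.0%, 17.6%, 28.2% and 6.0% in the order given, so that a window without them is common. Windows were found for 6 of the 9 regulators.

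Of 14 T-box paralogues only Tbx6 and Mga were high enough to test, neither was called for the transgene, and Tbx6 had at most 123 in any library. Mga, which encodes a large T-box protein that partners Max, had 1183 and 1813 in control and 1510 and 1588 in CD70Tg Tconvs, and 3087 and 3210 in control and 2153 and 2317 in CD70Tg Tregs. Its log2 fold change was -0.49 (adjusted p = 0.069) in Tregs and 0.08 (adjusted p = 0.87) in Tconvs. Tbr1, the closest relative of Eomes, was 0 in all 8 libraries.

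NK cells and CD8 T cells also express Eomes and Tbx21, and their markers are given here beside both genes. The summed value of 6 NK cell genes was 561 to 707 in control and 223 to 377 in CD70Tg Tconvs, 50 to 69 in control Tregs and 0 to 11 in CD70Tg Tregs. In CD70Tg Tregs 5 of the 6 were at 0 in both libraries, Ncr1 among them, at floors of 31.35 and 16.31. Klrb1c, an NK cell receptor gene, fell by 2.57 (adjusted p = 0.0035) in Tregs, and in Tconvs it fell by 2.45 (adjusted p = 0.0027). The Treg value was -2.20 (adjusted p = 0.053) without the first control Treg library. Both CD8 genes were detected in all groups. Cd8a went from 17 and 28 to 508 and 608 in Tconvs and from 25 and 71 to 262 and 223 in Tregs, a rise in both subsets (log2 fold changes 4.38 and 2.37, adjusted p = 9.7e-07 and 0.0012). Cd8b1 went from 703 and 653 to 1055 and 982 in Tconvs and from 292 and 346 to 398 and 408 in Tregs, and was not called (log2 fold changes 0.58 and 0.34). Anti-CD49b and anti-CD8beta were used in the depletion, and the gate was on CD4. The part of NK and CD8 T cells in the T-box results was not tested.

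Zeb2 (ENSMUSG00000026872, chr2:44983632-45117395, minus strand) was low throughout. Its values were 41 and 30 in control Tconvs, 73 and 172 in CD70Tg Tconvs, 54 and 79 in control Tregs and 115 and 44 in CD70Tg Tregs. In CD70Tg Tregs these were only 11 and 8 reads, and the Treg genotypes overlapped. Both CD70Tg Tconv libraries were above both controls, at 25 and 287 reads against 40 and 14. The log2 fold change in Tconvs was 1.55 (SE 0.47, interval 0.55 to 2.55) with an adjusted p of 0.051, just outside the threshold. It was called when the first CD70Tg Tconv library was left out (2.14, adjusted p = 0.016), and when any one of 3 Treg libraries, which enter only the estimate of the spread, was left out (adjusted p = 0.023 to 0.050). Without the second CD70Tg Tconv library it was 0.96. In Tregs the value was 0.12 (interval -0.87 to 1.12, adjusted p = 0.91), an interval that holds both a fall and a rise. The subsets' responses differed by -1.43 (interval -2.83 to -0.02, adjusted p = 0.46). The related gene Zeb1, which Zeb2 often opposes, was at -0.15 in Tregs and -0.18 in Tconvs (adjusted p = 0.55 and 0.54). Dendritic cells and macrophages express Zeb2, and the summed value of 6 dendritic cell genes was 279 to 567 in control and 572 to 1161 in CD70Tg Tconvs, and 381 to 704 and 1821 to 1884 in the Tregs. Of these sums H2-Ab1 alone made 213 to 434 and 395 to 821 in the Tconvs and 287 to 548 and 1432 to 1528 in the Tregs. The rest of the list made 66 to 133 and 177 to 340 in the Tconvs and 94 to 156 and 356 to 389 in the Tregs. Of the 3 genes tested, 2 were called higher in Tregs (2.52% of tested genes), Zbtb46 (2.73, adjusted p = 0.0017) and H2-Ab1 (1.89, adjusted p = 0.0027). In Tconvs 1 was (4.07%), Itgax (1.76, adjusted p = 0.015), at 1.17 without the second CD70Tg Tconv library. Cells bearing CD11c or MHC class II were depleted before the sort, and the part of such cells in the Zeb2 values was not tested.

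Hlx (ENSMUSG00000039377, chr1:184727140-184732619, minus strand) was at the limit of detection. It had 9 and 9 in control Tconvs, 18 and 12 in CD70Tg Tconvs, 5 and 22 in control Tregs and 0 and 11 in CD70Tg Tregs. The Treg values are 0 to 5 reads, and neither CD70Tg Treg library was above the floor of 3 reads. A difference in Hlx was therefore not detectable at this depth in Tregs. All 4 Tconv libraries were above their floors of 1.8 to 8.64, on 4 to 20 reads, with the gene too low for the minimum set. With no minimum value Hlx could be tested, with log2 fold changes of -0.88 in Tregs and 0.50 in Tconvs (adjusted p = 0.525 and 0.92) and a difference of -1.38 (adjusted p = 0.758).

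Prdm1 (ENSMUSG00000038151, chr10:44437177-44528501, minus strand) rose in Tconvs from a low level and was high in Tregs already. Tconvs had 239 and 245 in controls and 911 and 1129 in CD70Tg mice, and Tregs had 1582 and 2080 in controls and 2853 and 2909 in CD70Tg mice. The 4 groups followed each other in this order without overlap. Prdm1 rose by a log2 fold change of 2.04 in Tconvs (SE 0.16, interval 1.72 to 2.37, adjusted p = 1.5e-07), or 4.13-fold. In Tregs it was 0.67 (SE 0.16, interval 0.34 to 0.99, adjusted p = 0.015), past the p-value threshold but under the fold change asked for. Of the 8 tested regulators, 2 responded differently in the subsets (Prdm1 and Bhlhe40; 1.02% of tested genes differed at an adjusted p under 0.05), both with the smaller response in Tregs (0.828% of tested genes). For Prdm1 the responses differed by -1.38 (interval -1.84 to -0.91, adjusted p = 0.0043, and 0.23 and no longer called with no minimum value). The excess of Tregs over Tconvs was accordingly 2.88 on the log2 scale in controls (adjusted p = 7.1e-10) and 1.5 in CD70Tg mice (adjusted p = 1.6e-06). These 2 excesses use the same 8 libraries as the responses and are not further evidence. Plasma cells also express Prdm1. The summed value of their genes Jchain, Sdc1 and Mzb1 was 56 to 63 in control and 24 to 35 in CD70Tg Tconvs, and 53 to 74 in control and 50 to 53 in CD70Tg Tregs. The other 2 genes of the list, Xbp1 and Irf4, are also expressed by T cells and summed to 1947 to 2337 and 2415 to 2788 in the Tconvs and to 3937 to 4398 and 3000 to 3100 in the Tregs. The part of plasma cells in the Prdm1 values was not tested. Phf21b, Nlrc5, which encodes an activator of MHC class I genes, and H2-T10 had the patterns most like that of Prdm1 (r = 0.995 to 0.997).

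Bhlhe40 (ENSMUSG00000030103, chr6:108660629-108666925, plus strand) had the largest response of the regulators in Tconvs. Its values were 366 and 216 in control Tconvs, 3127 and 5936 in CD70Tg Tconvs, 549 and 583 in control Tregs and 2195 and 2561 in CD70Tg Tregs. All CD70Tg libraries were above all controls, and the order of the subsets was reversed between genotypes: Tregs had the more in controls and Tconvs in CD70Tg mice. In Tconvs the log2 fold change was 3.91 (SE 0.25, interval 3.39 to 4.44, adjusted p = 1.6e-08) and in Tregs 2.06 (interval 1.53 to 2.58, adjusted p = 7.2e-05), or 15.1-fold and 4.16-fold. The responses differed by -1.86 (SE 0.35, interval -2.59 to -1.12, adjusted p = 0.013). This difference was -1.39 (adjusted p = 0.06) without the second CD70Tg Tconv library and -1.74 (adjusted p = 0.083) without the first CD70Tg Treg library, which ends the call in both cases, as did setting no minimum value (adjusted p = 0.37) and limma-voom (adjusted p = 0.2). Tregs exceeded Tconvs by 1.00 in controls (adjusted p = 0.0037), rounded from a value just under the fold change asked for. It was called at 1.37 without the first control Tconv library and at 1.04 without the first control Treg library. In CD70Tg mice the difference was -0.86 (adjusted p = 0.01), and it was called at -1.32 (adjusted p = 0.00066) without the first CD70Tg Tconv library. The pattern most like that of Bhlhe40 was that of Lgalsl (r = 0.994), followed by Pdgfb, a growth factor gene, and Mir6381.

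Cebpb (ENSMUSG00000056501, chr2:167688915-167690418, plus strand, a gene with a single exon) rose in Tconvs. It had 94 and 84 in control and 165 and 374 in CD70Tg Tconvs, and 277 and 294 in control and 512 and 577 in CD70Tg Tregs. Both subsets had every CD70Tg library above every control. Its log2 fold change was 1.44 in Tconvs (SE 0.30, interval 0.80 to 2.07, adjusted p = 0.0047) and 0.92 in Tregs (interval 0.28 to 1.55, adjusted p = 0.076), which was not called. Without the second CD70Tg Tconv library the Tconv value was 0.86 (adjusted p = 0.1) and not called, and with no minimum value the call was lost as well (adjusted p = 0.12). The subsets' responses differed by -0.52 (interval -1.41 to 0.38, adjusted p = 0.74). The opposite-strand gene Tmem189 covers 312 bases (20.7%) of the Cebpb exon, where the assignment of reads depends on the strand setting, which is not known. Tmem189 had 1592 to 1761 in all 4 Treg libraries and 1687 to 2211 in the Tconv libraries. Myeloid cells express Cebpb strongly. The summed value of 6 neutrophil genes was 10 to 32 in control and 215 to 254 in CD70Tg Tregs and 6 to 25 in all Tconv libraries, and that of 7 macrophage genes was 1619 to 1675 and 1210 to 1547 in control and CD70Tg Tconvs and 2882 to 2908 and 2956 to 3075 in control and CD70Tg Tregs. Of the 6 macrophage genes tested, Cd68 was called higher in Tconvs (2.02, adjusted p = 0.00011). There Itgam, Lyz2, Fcgr3 and Csf1r were at -0.95 to -0.33 and Adgre1 at 0.13, and none of these was called. In Tregs Itgam was called higher (1.13, adjusted p = 0.013), a call that was lost without the first control or either CD70Tg Treg library (0.92 to 1.14). The others were not called in Tregs, with Csf1r at -0.67 (adjusted p = 0.029), Adgre1 at -0.39, and Cd68, Fcgr3 and Lyz2 at 0.47 to 0.59. Cells bearing GR1, neutrophils among them, were depleted before the sort. The part of myeloid cells in the values of Cebpb was not tested in either subset. Among the other C/EBP genes, Cebpa fell by 2.64 in Tregs and by 1.90 in Tconvs (adjusted p = 0.005 and 0.028). In Tconvs it had 389 and 70 in controls and 35 and 48 in CD70Tg mice, and without the first control library its value was -0.70 (adjusted p = 0.49). The Tconv call was also lost without either CD70Tg Tconv library (adjusted p = 0.12 and 0.099) and the Treg call without the first CD70Tg or the first control Treg library (-2.34 and -2.46, adjusted p = 0.054 and 0.055). The other genes Cebpd, Cebpg and Ddit3 were not called.

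The windows before the starts of Prdm1 and Cebpb are shown as the other 2 genes called in Tconvs for which one was found. They lie at chr10:44458749-44458998 (minus strand) for Prdm1, which is inside the span of the gene but in no exon, and at chr2:167688665-167688914 (plus strand) for Cebpb. Capitals mark GCGTG, or its reverse complement CACGC, in both and the NF-kappaB decamer in Cebpb.
Prdm1: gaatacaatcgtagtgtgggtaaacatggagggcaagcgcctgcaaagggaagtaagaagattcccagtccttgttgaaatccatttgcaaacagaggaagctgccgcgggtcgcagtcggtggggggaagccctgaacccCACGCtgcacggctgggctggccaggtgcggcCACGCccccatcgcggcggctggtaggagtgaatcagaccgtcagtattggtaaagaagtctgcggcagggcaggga
Cebpb: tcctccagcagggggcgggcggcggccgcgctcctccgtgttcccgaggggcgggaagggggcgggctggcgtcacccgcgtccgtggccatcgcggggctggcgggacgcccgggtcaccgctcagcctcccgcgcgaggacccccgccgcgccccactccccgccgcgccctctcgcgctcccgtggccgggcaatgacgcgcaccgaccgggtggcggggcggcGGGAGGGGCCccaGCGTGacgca
The Prdm1 window holds 2 matches to the letters of the aryl hydrocarbon receptor motif. The Cebpb window holds 1 such match and 1 to the NF-kappaB letters close to the start, in a sequence with 81.6% G and C. A match is a description of these letters and no evidence of binding.

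**Figure D3:**
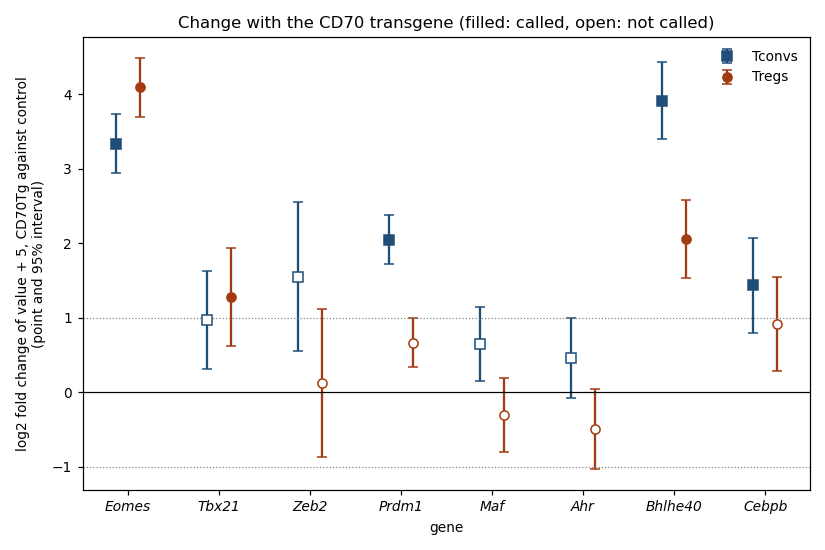
Log2 fold change of value + 5 (CD70Tg against control) with its 95% interval for the 8 tested regulators, squares for Tconvs and circles for Tregs, filled where called, with dotted lines at -1 and 1. Prdm1 and Bhlhe40 have the larger response in Tconvs (differences of -1.38 and -1.86 for Tregs minus Tconvs), and the intervals of Maf and Ahr lie between -1.03 and 1.14.

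Maf and Ahr marked Tregs in both genotypes and were not called for the transgene. Maf (ENSMUSG00000055435, chr8:115682942-115707794, minus strand) had 6575 and 7023 in control Tregs, 5925 and 5117 in CD70Tg Tregs, 2043 and 1055 in control Tconvs and 1818 and 2914 in CD70Tg Tconvs. Both Treg groups were above every Tconv library, the CD70Tg Tregs were below the controls, and the Tconv genotypes overlapped. Maf exceeded its Tconv level by 2.21 in control Tregs (adjusted p = 1.4e-06) and by 1.26 in CD70Tg Tregs (adjusted p = 0.00048). The response was -0.30 in Tregs (interval -0.80 to 0.19, adjusted p = 0.5) and 0.65 in Tconvs (interval 0.15 to 1.14, adjusted p = 0.11). The first control Tconv library decided the latter, since without it the response in Tconvs was 1.12 (adjusted p = 0.00082) and the difference between subsets -1.43 (adjusted p = 0.0049) in place of -0.95 (adjusted p = 0.26). Without the first CD70Tg Tconv library the excess in CD70Tg Tregs was 0.92 and no longer called. The overlapping antisense gene Gm15655, which covers 5.3% of the exons, had 1184 and 1174 in control Tregs and 878 and 865 in CD70Tg Tregs. None of the related genes Maff, Mafg and Mafk was called in either subset.

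Ahr (ENSMUSG00000019256, chr12:35497974-35535038, minus strand) had 568 and 491 in control Tregs and 324 and 430 in CD70Tg Tregs. Tconvs had 93 and 76 in controls and 133 and 104 in CD70Tg mice. No group overlapped another: the order was control Tconvs, CD70Tg Tconvs, CD70Tg Tregs and control Tregs. The excess in Tregs was 2.58 in controls (SE 0.25, adjusted p = 6.2e-07) and 1.63 in CD70Tg mice (adjusted p = 1.0e-04). With the transgene it moved by -0.49 in Tregs (interval -1.03 to 0.04, adjusted p = 0.28) and by 0.46 in Tconvs (interval -0.08 to 1.00, adjusted p = 0.36), and these did not differ past the test (-0.96, interval -1.71 to -0.20, adjusted p = 0.32). Among 6 targets of the receptor only Entpd1 and Tiparp could be tested. Tiparp, which encodes a poly-ADP-ribose polymerase that restrains the receptor, had 298 to 379 in the Tconv and 304 to 425 in the Treg libraries and was not called (log2 fold change -0.19 in Tregs, adjusted p = 0.68). Entpd1, which encodes the ectoenzyme CD39, had 133 and 124 in control Tconvs and 1046 and 1573 in CD70Tg Tconvs and rose there (3.27, adjusted p = 1.8e-09). In Tregs Entpd1 had 1461 and 1441 in controls and 2257 and 2333 in CD70Tg mice (0.66, adjusted p = 0.028), and the responses differed (-2.61, adjusted p = 3.5e-05). The classical targets Cyp1a1 and Ahrr had at most 7 and 6 in any library.

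Comparing Tregs with Tconvs, the regulators fell into 3 sets. In control mice 4 were called higher in Tregs (Prdm1, Ahr, Maf and Cebpb; 14.7% of tested genes) and 2 lower (Eomes and Tbx21; 4.43%), and the same genes were called in CD70Tg mice (12.3% and 4.94% of tested genes). Cebpb exceeded its Tconv level by 1.63 in controls (adjusted p = 0.00036) and by 1.11 in CD70Tg mice (adjusted p = 0.0072), the latter being 0.53 (adjusted p = 0.11) without the first CD70Tg Tconv library. The call in CD70Tg mice was also lost with no minimum value (adjusted p = 0.06) and with limma-voom (0.87, adjusted p = 0.048). With 1 library left out 6 to 7 regulators were called in controls and 4 to 6 in CD70Tg mice, being 4 without the second CD70Tg Tconv library. Zeb2 and Bhlhe40 were called in neither genotype. For all 8 tested regulators the subsets differed by less in CD70Tg than in control mice, which held for 55.6% of all tested genes, and for Bhlhe40 and Zeb2 the sign was turned. The count was 5 of 8 without the first CD70Tg Tconv library and 6 to 8 without any other one. It was made after the values were seen and carries no test.

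The genes that T-bet and Eomes are known to act on rose in nearly every case. Of 15 such targets, 13 were called higher in CD70Tg Tregs and 15 in CD70Tg Tconvs, with median log2 fold changes of 1.81 and 3.66, where 2.52% and 4.07% of all tested genes were called higher. With 1 library left out the counts were 9 to 13 in Tregs and 12 to 15 in Tconvs. Ccl4 and Ccl3, inflammatory chemokines that attract effector T cells, rose most. Ccl3 went from 15 and 53 to 868 and 1175 in Tregs and from 8 and 3 to 2415 and 3050 in Tconvs (4.90 and 8.06, adjusted p = 2e-06 and 1.2e-09). Gzmb, a granzyme of cytotoxic granules, went from 850 and 666 to 2174 and 3246 in Tregs and from 72 and 51 to 1323 and 2941 in Tconvs (1.81 and 4.91, adjusted p = 0.00087 and 5.5e-09). Gzmk, another granzyme, rose in both subsets, from 10 and 49 to 878 and 778 in Tregs and from 506 and 99 to 5259 and 6797 in Tconvs (4.87 and 4.70). Its responses differed by 0.17 (interval -1.48 to 1.82, adjusted p = 0.96). In Tregs the targets not called were Fasl (0.56, adjusted p = 0.15) and Il2rb (0.14, adjusted p = 0.57). The response was smaller in Tregs for 5 of the 15, Ccl3, Gzmb, Klrg1 and Il2rb among them (0.828% of tested genes), and larger for 0 (0.188%). With 1 library left out the first count was 2 to 6, being 2 without the first CD70Tg Treg library and 3 without the second CD70Tg library of either subset, and the response of Prf1 was larger in Tregs (difference 0.98, adjusted p = 0.046) without the second control Tconv library. The study itself named several of these targets from the same libraries, so that they are not independent of the regulators' results.

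Among the target promoters 2 held the T-box letters GGTGTGA, and they are shown with at most 20 bases on each side, the motif in capitals. A window was found for 10 of the 15 targets and the letters, which 3.3% of the 32851 windows held, for Gzmk, at chr13:113181014-113181060 (minus strand), and Nkg7, at chr7:43437105-43437137 (plus strand), in GRCm38.p6.
Gzmk: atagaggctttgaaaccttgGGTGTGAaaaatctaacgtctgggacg
Nkg7: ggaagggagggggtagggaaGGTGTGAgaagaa
The letters end 68 bases before the start of Gzmk and 6 bases before that of Nkg7. Nkg7, which encodes a protein of cytotoxic granules, went from 316 and 491 to 3657 and 3681 in Tregs (log2 fold change 3.20, adjusted p = 5.9e-09) and from 744 and 829 to 9624 and 10964 in Tconvs (3.70, adjusted p = 7.7e-10). The 8 targets without the letters included Ccl3, Gzmb and Ifng, which were also called in both subsets. Ifng, the gene of interferon-gamma, went from 64 and 71 to 168 and 300 in Tregs (1.67, adjusted p = 0.016) and from 105 and 72 to 718 and 2111 in Tconvs (3.75, adjusted p = 6.9e-06). Its Treg call was lost without the second CD70Tg Treg library (1.26, adjusted p = 0.15) or either control Treg library (adjusted p = 0.11 and 0.055).

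Of 14 genes of the signals that lie upstream of T-bet, 3 were called higher in Tregs (Il18r1 and Ifngr1 among them) and 3 in Tconvs (Il12rb1, Il18r1 and Ifngr1), with median log2 fold changes of 0.41 and 0.75, beside the same 2.52% and 4.07% of all tested genes. With 1 library left out 2 to 4 were called in Tregs and 2 to 6 in Tconvs, with 5 without the first CD70Tg Tconv library and 6 without the first control Tconv library. Ifngr1, a chain of the interferon-gamma receptor, went from 7585 and 8245 to 15913 and 18492 in Tregs (1.12, adjusted p = 4.2e-05) and from 3455 and 3275 to 6391 and 7528 in Tconvs (1.04, adjusted p = 2.1e-05). Without the second CD70Tg Tconv library Ifngr1 and Il18r1 were at 0.92 and 0.94 in Tconvs and not called. Il12rb1, a chain of the interleukin-12 receptor, was the only one with a different response in the subsets (0.66 in Tregs and 1.93 in Tconvs, difference -1.27, adjusted p = 0.041). That difference was -0.81 (adjusted p = 0.062) without the second CD70Tg Tconv library, and it lost its call without the second control Tconv library (-1.22, adjusted p = 0.071) or any one of the 4 Treg libraries (-1.31 to -1.23, adjusted p = 0.1 to 0.13). Stat4, Jak1, Jak2 and Il27ra were not called in either subset.

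**Figure D4:**
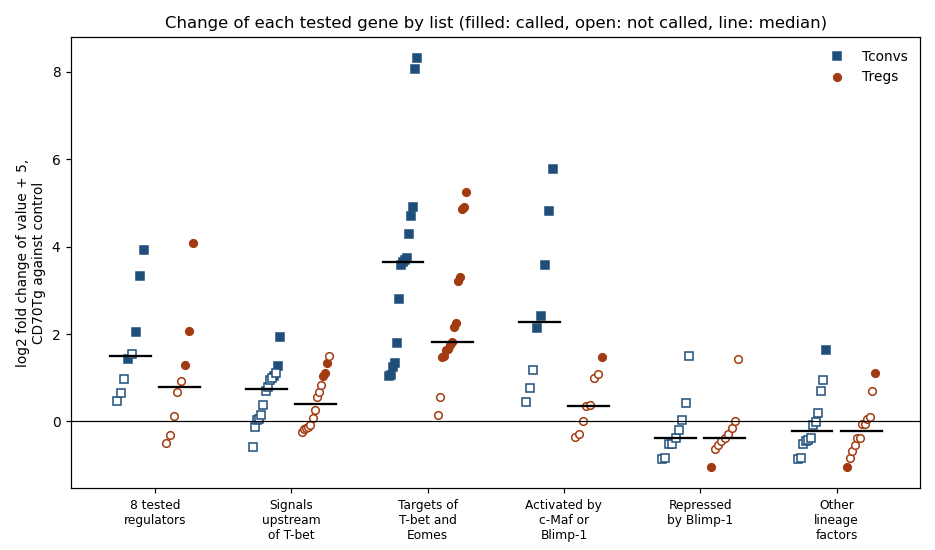
Log2 fold change (CD70Tg against control) of each tested gene in 6 lists, squares for Tconvs and circles for Tregs, filled where called, with a line at each median. All 15 targets of T-bet and Eomes are called in Tconvs and 13 in Tregs, and of the 8 genes activated by c-Maf or Blimp-1 5 are called in Tconvs and 1 in Tregs.

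Of 8 genes that c-Maf or Blimp-1 activate, 5 were called higher in Tconvs (Havcr2, Il10, Lag3, Tigit and Pdcd1) and 1 in Tregs (Havcr2), with medians of 2.27 and 0.36. Over all tested genes 4.07% and 2.52% were called higher, and the medians were 0.01 and -0.05. The control Tconv libraries stood apart on this list, with Lag3 at 1331 and 239, Tigit at 1274 and 360 and Pdcd1 at 1867 and 547. Without the second of them the Tconv median was 1.37, Lag3 2.36, Tigit 1.5 and Pdcd1 1.25, all 3 still called, and without the first the median was 3.16. In Tregs 0 genes were called without the first control or the second CD70Tg Treg library, and 3 without either control Tconv library. Havcr2, which encodes the inhibitory receptor TIM-3, went from 13 and 9 to 666 and 1123 in Tconvs (5.78, adjusted p = 1.6e-09) and from 190 and 298 to 586 and 756 in Tregs (1.46, adjusted p = 0.0067). The Treg value was 1.15 (adjusted p = 0.12) without the first control Treg library and 1.28 (adjusted p = 0.064) without the second CD70Tg Treg library. Il10 went from 30 and 3 to 340 and 629 in Tconvs (4.80, adjusted p = 3.6e-06), and had 253 and 307 in control and 512 and 691 in CD70Tg Tregs (1.08, adjusted p = 0.2). That value was called without either control Tconv library (adjusted p = 0.03 and 0.023), which enters only the estimate of the spread. The response was smaller in Tregs for 4 of the 8 (Havcr2, Il10, Pdcd1 and Ctla4), where it was for 0.828% of tested genes. This count was 7 without the first control Tconv library, 6 without the first CD70Tg Tconv library, 1 without the second CD70Tg Tconv or the first CD70Tg Treg library, and 2 without any one of the other 3 Treg libraries. Among 9 tested genes that Blimp-1 represses, Id3 fell in Tregs (-1.05, adjusted p = 0.00015) and none was called in Tconvs, where 0.57% of tested genes were called lower. Without the first CD70Tg or the first control Treg library Id3 was at -0.99 or -1.0, just short of the fold change asked for, and not called. Id3, an inhibitor of E proteins kept high in naive cells, was 1948 and 1622 in control and 922 and 1039 in CD70Tg Tconvs (-0.86, adjusted p = 0.00049). Bcl6, which Blimp-1 opposes in follicular helper cells, was not called (-0.55 in Tregs and -0.83 in Tconvs, adjusted p = 0.16 and 0.026). Without the second control Tconv library Bcl6 was called lower in Tconvs (-1.26, adjusted p = 0.00096). Cxcr5, the receptor that leads follicular helper cells to B cell areas, was at 0.41 in Tconvs (adjusted p = 0.56) and was called higher (1.25, adjusted p = 1.2e-05) without the first control Tconv library. Ciita, the activator of MHC class II genes, was at 1.5 in Tconvs (adjusted p = 0.058) and was called when any one Treg library was left out (adjusted p = 0.024 to 0.044), and at 1.43 in Tregs, where it was called (2.14, adjusted p = 0.018) without the second CD70Tg Treg library.

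Of 12 factors of other lineages, Id2 rose (1.12, adjusted p = 0.00017) and Id3 fell in Tregs, where 2.52% of tested genes were called higher and 1.08% lower, and Rora rose in Tconvs (1.64, adjusted p = 5.8e-06; 4.07% of tested genes). In Tconvs Id2 was at 0.95 and was called without the first CD70Tg (1.17) or the second control Tconv library (1.07), and Bcl6 was called lower without the latter. Rora kept its call with any library left out. The log2 fold changes of Gata3, the factor of T helper 2 cells, were 0.05 in Tregs and -0.07 in Tconvs (adjusted p = 0.87 and 0.84). Foxp3 was at 0.09 in Tregs (adjusted p = 0.77). The receptor gene Cd27 itself had 5173 and 5543 in control and 6123 and 5894 in CD70Tg Tregs and was not called (0.17, adjusted p = 0.42).

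The correlations of the regulators across the 8 libraries are a description over libraries that share subset and genotype. Prdm1, Maf, Ahr and Cebpb, all higher in Tregs, had r of log2 values of 0.70 to 0.95 with each other. Eomes had 0.845 with Bhlhe40 and 0.828 with Tbx21. Bhlhe40 was also close to Zeb2 (0.75), Cebpb (0.68), Tbx21 (0.602) and Prdm1 (0.575). Tbx21 and Ahr were the most opposed pair (-0.68). Eomes and Prdm1 were nearly unrelated (0.155), although both were higher in CD70Tg than in control mice in each subset.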

How the data were processed

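RNA was extracted from sorted splenic Tregs and Tconvs with RNeasy Plus Mini, libraries were made with Ovation SoLo RNA-Seq and sequenced paired-end. Each score in the table deposited by the authors is a read count from Trimmomatic 0.36, STAR 2.5.3 (mm10) and HTSeq 0.9.1, which they scaled to 20 M reads per library (totals 19963628 to 20164600) and rounded up. Reads per library were estimated here from the spacing of low values and are less certain for the first control and second CD70Tg Tconv libraries. Floors cover counting error only. The 4131 rows named after genomic clones were left out, and of 97 names on several rows the row with the largest total was kept. The 12798 genes that reached 60 in 2 or more libraries were tested with limma 3.58.1 (R 4.3.3, trend in the prior variance, prior df 12.3) on log2(value + 5), with 1 coefficient for each of the 4 groups and Benjamini-Hochberg adjustment over all tested genes within each of 5 contrasts. All adjusted p-values are limma's. The difference between subsets was called on its adjusted p alone. An exact permutation test of 2 against 2 libraries cannot go below p = 0.333 and was not used. The fit was run on simulated data with known changes and the same dispersion for all genes, which does not show how reliable the calls in these libraries are. The regulators and lists were chosen with earlier results of these data known. All regulators were named, and from each list at most 4 called genes of largest change, with a few others that a count turned on, chosen after values were seen. For each regulator the 3 genes most correlated over the 8 libraries were named. Gene positions follow GENCODE M21, and promoter windows follow RefSeq GRCm38.p6. Alternatives covered scaling, pseudocount, minimum value, limma-voom on estimated reads, the 2 groups alone, the rows left out and each library left out. A few genes of the lists are counted but not reported by name here.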

Additional observations from a re-analysis of the deposited data

Results flagged for a closer look

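The response to the CD70 transgene differed between the subsets for Prdm1 (Treg response minus Tconv response -1.38 on the log2 scale, adjusted p = 0.0043), with every CD70Tg library above both controls of its subset. It differed likewise for Bhlhe40 (-1.86, adjusted p = 0.013), where the call was lost without the second CD70Tg Tconv library (-1.39, adjusted p = 0.06) or the first CD70Tg Treg library (-1.74, adjusted p = 0.083). Both genes are brought up by the interaction term of limma's model over all 8 libraries. With 2 libraries in each group, no group was large enough to look for single outlying samples.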

How the results depend on the processing

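There were 17 alternatives, 8 of them leaving out 1 library, in which a lone library is assumed to vary like the other groups. Of 672 recomputed log2 fold changes of the regulators, 624 kept their direction and their side of the threshold, 26 fell short of it, 16 newly passed it and 6 turned in sign. None of the 6 passed the threshold. The number of regulators with different responses in the subsets was 2, with 0 when no minimum value was set, where 0 of all tested genes were called against 130, and 1 with limma-voom, and 1 to 3 with a library left out. The Zeb2 response in Tregs was -0.01 with limma-voom and -0.52 to 0.77 with a library left out, and its difference between subsets in CD70Tg mice was -1.26 to 0.03. The difference between responses was -0.43 to 1.05 for Tbx21 and -1.10 to 0.06 for Cebpb. The Tbx21 call in Tregs was also lost with no minimum value (adjusted p = 0.18) and with limma-voom (adjusted p = 0.43), over a range of 0.00031 to 0.43. The Tbx21 difference between subsets in controls was lost under the same 2 settings (adjusted p = 0.058 in both). Zeb2 in Tconvs was called under 8 alternatives, limma-voom among them (1.93, adjusted p = 0.009). Cebpb in Tconvs was lost with no minimum value (adjusted p = 0.12). In each case with no minimum value more genes were tested. No paired analysis was possible because the columns of the table carry no replicate numbers that link libraries of different groups. Depth limits Hlx and Zeb2 in Tregs.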
